A study of Rattus norvegicus with 4 samples.

Results

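The 10 genes described here take up, store and export iron, or hold the iron-responsive control of those steps: Tfrc, Steap3, Slc11a2, Slc39a14, Cybrd1, Fth1, Ftl1, Slc40a1, Aco1 and Ireb2. They were chosen by name for their known role. Every gene probe on the array whose symbol, or an older alias of it, was one of these names was taken, which gave 15 of the 30367 gene probes. Tfrc, Fth1, Slc11a2, Slc40a1 and Slc39a14 had 2 probes each and the other 5 genes had 1. Each probe was kept apart. Only levels of the same probe were compared with each other.

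Pancreatic RNA came from male Sprague-Dawley weanling rats that ate 1 of 3 purified diets for 3 weeks. By the labels the iron-deficient diet (FeD) held 5 ppm iron, the iron-adequate diet (FeA) 35 ppm and the iron-overloaded diet (FeO) 20275 ppm. The FeA diet carried added ferric citrate and the FeO diet carbonyl iron, and all diets had raised sucrose. RNA of 6 rats was combined into 1 pool per diet. Each of FeD and FeO was co-hybridised with FeA on a pair of dye-swapped arrays, with the diet pool in Cy5 on array 1 and in Cy3 on array 2. Both arrays of a comparison held the same 2 pools, so their spread is technical and no test of the diets was possible. Both comparisons use the FeA pool, so a high or low FeA signal moves both ratios together.

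Cells read their labile iron through the iron regulatory proteins IRP1, encoded by Aco1, and IRP2, encoded by Ireb2. When iron is scarce these proteins bind iron-responsive elements, short stem-loops in the mRNA. Binding at the 3′ end of Tfrc mRNA slows its decay, whereas binding at the 5′ end of ferritin and ferroportin mRNA holds back translation, so protein can change there without a change of mRNA. The pancreas is a site of iron loading in hereditary iron overload, and its exocrine cells carry Slc39a14, an importer of iron that is not bound to transferrin.

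Promoter sequences from RefSeq (GRCr8) were at hand for 7 of the 10 genes, as 8 windows, Slc11a2 having 2, and Fth1, Ftl1 and Slc39a14 were not among them. The Tfrc window is shown because Tfrc moved in opposite directions in the 2 diets, and both Slc11a2 starts because the Slc11a2 probes did not give the same ratio. All are on the minus strand, end at the base before the start of transcription and read 5′ to 3′. The Tfrc window, chr11:81690319-81690568, has the core of a hypoxia response element, ACGTG, in capitals, its first base at position -31 from the start. The Slc11a2 windows, chr7:133417789-133417908 and chr7:133418940-133419059, are shortened to the 120 bases nearest each start and hold no capitals.
Tfrc: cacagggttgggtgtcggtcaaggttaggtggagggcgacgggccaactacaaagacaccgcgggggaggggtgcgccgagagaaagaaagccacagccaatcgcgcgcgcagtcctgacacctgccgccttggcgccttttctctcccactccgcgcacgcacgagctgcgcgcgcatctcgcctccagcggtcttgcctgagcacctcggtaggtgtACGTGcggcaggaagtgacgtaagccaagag
Slc11a2 start 1: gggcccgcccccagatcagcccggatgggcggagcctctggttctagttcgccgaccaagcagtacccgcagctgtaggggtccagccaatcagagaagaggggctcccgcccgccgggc
Slc11a2 start 2: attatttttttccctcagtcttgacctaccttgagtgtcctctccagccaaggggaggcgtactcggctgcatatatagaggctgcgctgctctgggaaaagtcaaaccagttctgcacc

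Searched on both strands in the 250 bases before the start, ACGTG was in 1 of the 8 windows, that of Tfrc, and in 16.6% of all 33469 windows. The antioxidant response element TGACNNNGC was in 0 of the 8 and in 3373 of all windows. The loop letters of an iron-responsive element, CAGTGN on the sense strand of the first 50 bases after the start, were in 0 of the 8, which include no ferritin gene, and in 7.26% of all. These matches describe letters in a window and say nothing about the binding of a factor. Which Slc11a2 transcript each probe reads is not given in the sources used here.

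The log2 ratio of a diet pool over FeA was taken on each array after background correction and loess normalisation. A probe passed when it was well above background on both arrays in at least 1 of the 2 pools. It was called up or down when its log2 ratio had the same sign and was 0.25 or more in size on both arrays, which is a size criterion and not a test. In each comparison 12 of the 15 probes passed. Tfrc probe A_44_P313767 and the Ireb2 probe were not well above background in any pool. In every pool on every array, 10 of the 15 probes (7 genes) were well above background, against 51% of all gene probes, and none was saturated. On an array, the SD of the log2 ratio among 10 spots of the same probe had a median of 0.127 to 0.135.

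In FeD against FeA, 1 of the 12 probes was called up (3.77% of the 17513 probes tested), that of Tfrc, and 2 were called down (2.12%), those of Slc40a1 and Cybrd1. In FeO against FeA, 1 of the 12 was called up (5.59% of 18315), that of Ftl1, and 3 were called down (4.33%), those of Tfrc, Slc11a2 and Slc40a1. Over the 12 probes that passed, the median log2 ratio was -0.065 in FeD and -0.086 in FeO, beside 0.01 and 0.01 over all probes tested. Over all 15 probes, passed or not, it was -0.05 in FeD and -0.07 in FeO. The differences lay in single genes, and as processed here none of the 15 probes reached a mean log2 ratio of 1 in size.

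**Figure D1:**
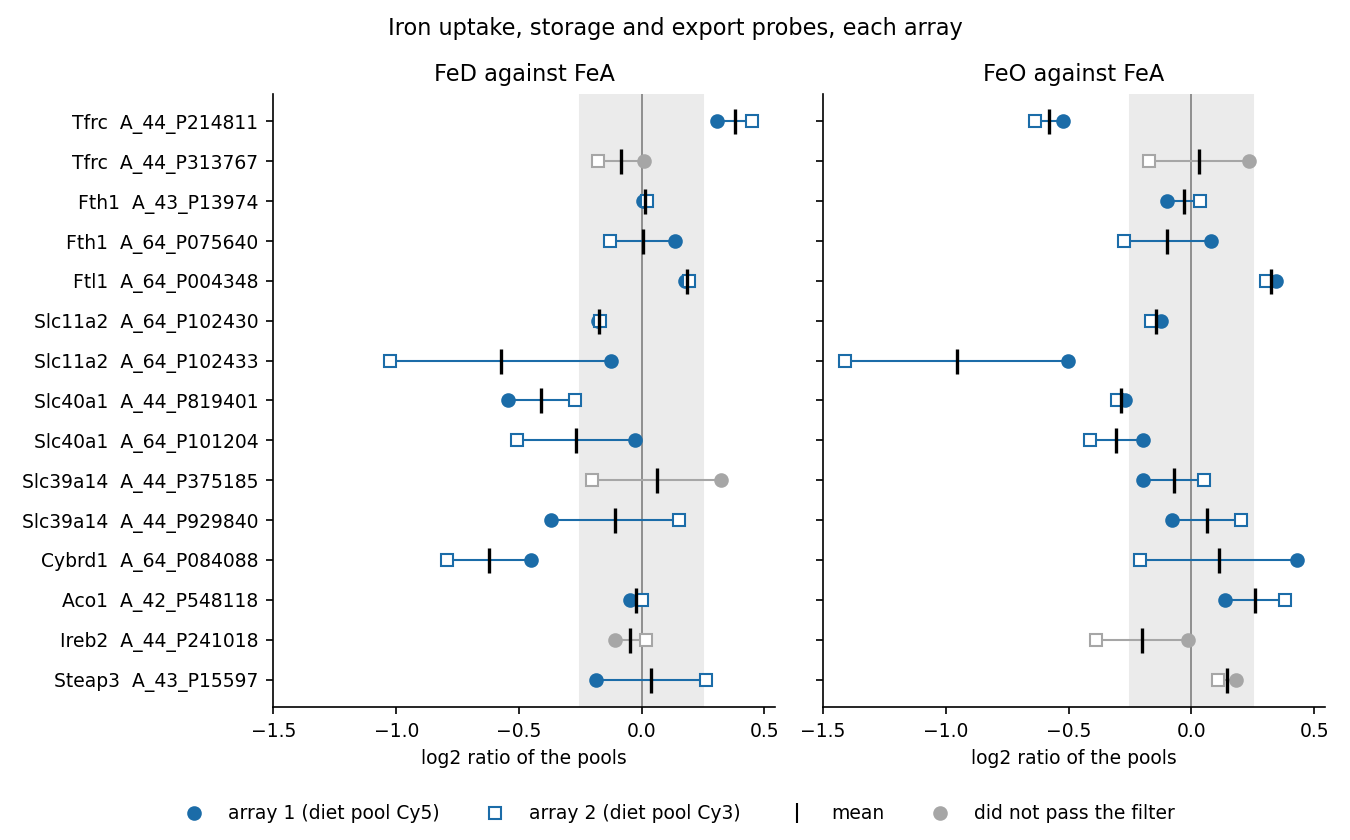
Log2 ratio of FeD over FeA (left) and FeO over FeA (right) for the 15 probes, with array 1 as a filled circle, array 2 as an open square and the mean as a black bar. Grey symbols mark probes that did not pass the filter, and the grey band spans ratios under 0.25 in size. Tfrc probe A_44_P214811 lies right of the band in FeD (0.31 and 0.45) and left of it in FeO (-0.52 and -0.64), and Slc11a2 probe A_64_P102433 has its array 2 value far to the left in both.

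Tfrc encodes transferrin receptor 1, through which cells take up transferrin-bound iron. On the log2 intensity scale, its probe A_44_P214811 read 9.25 and 9.28 in the FeD pool. The FeA pool read 8.95 and 8.83 on the same arrays, and 9.05 and 8.83 on the FeO arrays. The FeO pool read 8.52 and 8.20. The pools therefore stood in the order FeD, FeA, FeO with no overlap. The FeD to FeA log2 ratio was 0.31 and 0.45 (mean 0.38, SD 0.10, n = 2 arrays), a 1.30-fold higher level, and 3.55% of the probes tested had a higher ratio. The FeO to FeA log2 ratio was -0.52 and -0.64 (mean -0.58, SD 0.08, n = 2 arrays), a 1.49-fold lower level, and 1.49% of the probes tested had a lower ratio. Tfrc was the only one of the 10 genes called in opposite directions in the 2 diets.

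These Tfrc calls depended on loess. With each array centred on its median instead, the Tfrc log2 ratios were 0.65 and 0.04 in FeD (mean 0.35) and -0.16 and -0.88 in FeO (mean -0.52), so the sign held on each array but no call did. The other Tfrc probe read 6.05 to 6.33 in all pools, not well above background, and carries no level.

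Dividing lymphocytes and red cell precursors are known to carry Tfrc. Lymphocyte markers moved with Tfrc in both diets, and 1 erythroid marker did in FeD. In bulk RNA, fewer cells of a type and less RNA per cell cannot be told apart. Of the 8 lymphocyte genes, 6 were up in FeD (3.77% of all probes tested) and 6 were down in FeO (4.33%), and the rest were not called. The median log2 ratio of their 9 probes was 0.60 in FeD and -0.74 in FeO. Their summed normalised intensity was 7596 and 6566 in FeD against 3791 and 3750 in FeA, and 1437 and 1511 in FeO against 3402 and 3797 in FeA. Of the 4 erythroid genes on the array, 1 was up in FeD, Slc4a1, the anion exchanger of red cells (0.80 and 1.39, mean 1.09), and none was called in FeO. The summed erythroid intensity was 52910 and 52840 in FeD against 45920 and 47920 in FeA. On the FeO arrays it was 55000 and 49590 in FeO against 46650 and 47320 in FeA. The part of either cell type in the Tfrc ratio was not tested.

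Steap3, an endosomal reductase that works on iron delivered by the transferrin receptor, was near background. Its levels spanned 6.30 to 6.61 in FeA, with 6.42 and 6.56 in FeD and 6.51 and 6.44 in FeO, so the pools overlapped. Its FeD to FeA log2 ratio was -0.19 and 0.26, opposite in sign on the 2 arrays. In FeO it did not pass the filter.

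Slc11a2 encodes DMT1, a carrier of ferrous iron. Its probe A_64_P102433 read 11.48 and 11.96 in FeA against 11.36 and 10.94 in FeD, and 11.56 and 11.80 in FeA against 11.06 and 10.39 in FeO. All values of FeD and FeO were thus below all FeA values, and FeD overlapped FeO. The FeO to FeA log2 ratio was -0.50 and -1.41 (mean -0.96, SD 0.64, n = 2 arrays), a 1.94-fold lower level by the mean. In FeD it was -0.13 and -1.02 (mean -0.57, SD 0.63), and array 1 kept it from being called.

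The gap between the arrays was nearly the same in both comparisons, 0.45 on either side of the mean, whereas the median over all probes was 0.09. The value on array 2, with the diet pool in Cy3, was the lower in both. With median centring the FeO ratios were near 0 on array 1 and -1.76 on array 2, and the call was lost. The other Slc11a2 probe, A_64_P102430, had log2 ratios of -0.18 and -0.17 in FeD and -0.12 and -0.16 in FeO, and was not called. The mean ratios of the 2 probes differed by 0.40 in FeD and by 0.81 in FeO, so a single value for Slc11a2 mRNA is uncertain.

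Cybrd1 encodes duodenal cytochrome b, a ferric reductase of the membrane. Its probe read 7.20 to 7.29 in the FeA pool, 6.75 and 6.41 in the FeD pool and 7.71 and 7.08 in the FeO pool. FeD was below FeA and FeO without overlap, whereas FeO lay on both sides of FeA. The FeD to FeA log2 ratio was -0.45 and -0.79 (mean -0.62, SD 0.24, n = 2 arrays), a 1.54-fold lower level, and 0.622% of the probes tested had a lower ratio. In FeO it was 0.43 and -0.21. The FeD pool was well above background for Cybrd1 on 1 of 2 arrays. The size of the ratio in FeD ran with the background correction, from -0.48 with no subtraction to -1.55 with the scanner software's log ratio, and its sign held.

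Slc39a14 encodes ZIP14, and its ratios had opposite signs on the 2 arrays for both probes in both comparisons. Probe A_44_P929840 read 6.82 to 7.07 in FeA, 6.53 and 6.99 in FeD and 6.99 and 7.02 in FeO. Its mean log2 ratio was -0.11 in FeD and 0.06 in FeO. Probe A_44_P375185 passed only in FeO, with a mean of -0.07. FeA overlapped both diet pools on both probes, and a difference was not detectable with these arrays.

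Ferritin stores iron in a shell of heavy (Fth1) and light (Ftl1) chains. The Ftl1 probe read 16.78 to 17.03 in FeA, 17.05 and 16.97 in FeD, and 17.27 and 17.33 in FeO. FeO lay above all other values, and FeD overlapped FeA. The FeO to FeA log2 ratio was 0.34 and 0.30 (mean 0.32, SD 0.03, n = 2 arrays), a 1.25-fold higher level, and 8.24% of the probes tested had a higher ratio. In FeD it was 0.18 and 0.19, the same sign on both arrays but below the size criterion. With median centring the FeO ratio was 1.36 and -0.08 (mean 0.64), and the call was lost.

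Fth1 was called in neither comparison. Probe A_43_P13974 had log2 ratios of 0.01 and 0.02 in FeD and -0.10 and 0.04 in FeO. Probe A_64_P075640 had 0.14 and -0.13 in FeD and 0.08 and -0.27 in FeO. FeA overlapped both diet pools on both probes. Ferritin genes have many near-identical processed copies in mammalian genomes, and whether they add to these signals was not tested.

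**Figure D2:**
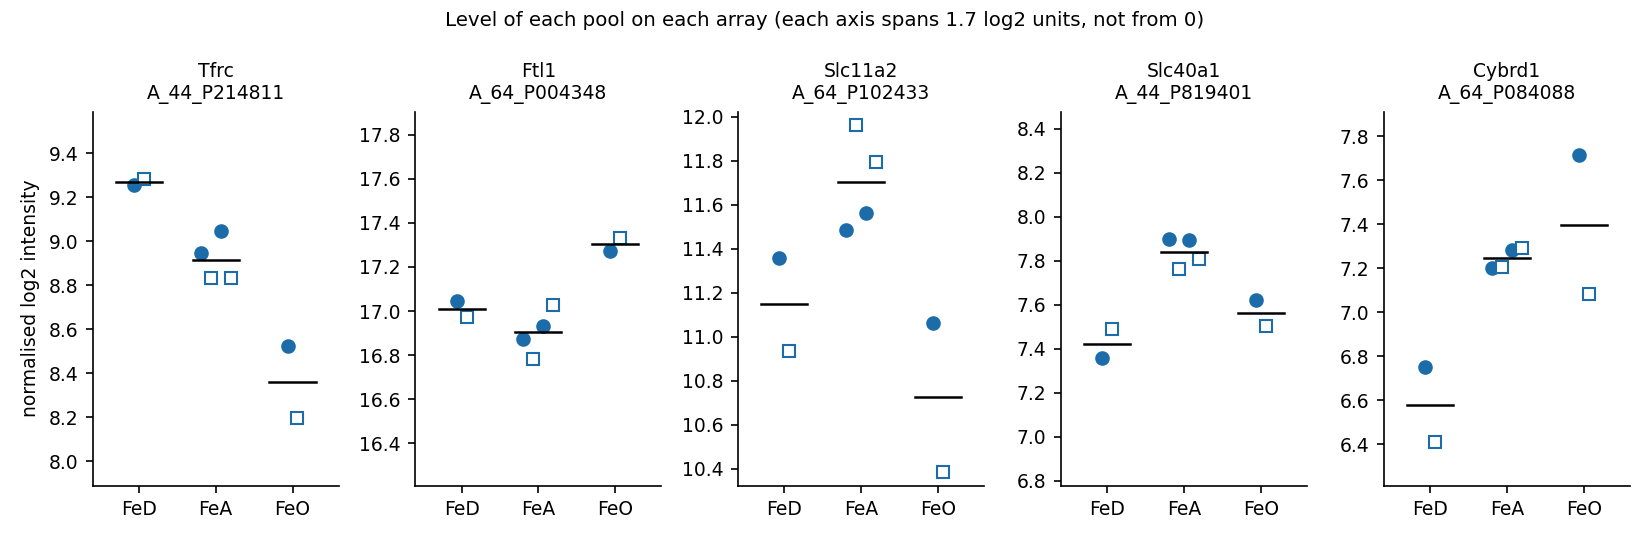
Normalised log2 intensity of the 5 probes that were called, in the FeD, FeA and FeO pools, with array 1 as a filled circle, array 2 as an open square and the mean as a line. FeA has 4 values because it was on every array, and each axis spans the same range without starting at 0. Tfrc falls from FeD to FeO without overlap, Ftl1 is highest in FeO (17.27 and 17.33), Slc11a2 and Slc40a1 are highest in FeA, and Cybrd1 is lowest in FeD (6.75 and 6.41).

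Slc40a1 encodes ferroportin, the only known iron exporter of mammalian cells. Its probe A_44_P819401 read 7.90 and 7.76 in FeA against 7.36 and 7.49 in FeD, and 7.89 and 7.81 in FeA against 7.62 and 7.51 in FeO. Both diet pools were below every FeA value. The log2 ratio was -0.54 and -0.27 in FeD (mean -0.41, SD 0.19, n = 2 arrays), a 1.33-fold lower level. In FeO it was -0.27 and -0.30 (mean -0.29, SD 0.02), a 1.22-fold lower level, close to the size criterion. The other probe, A_64_P101204, had negative ratios on all arrays (-0.03 and -0.51 in FeD, -0.20 and -0.41 in FeO) and was called in neither. The FeD call of A_44_P819401 held with median centring, whereas its FeO call was lost with it (-0.05 and -0.45).

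Slc11a2, Cybrd1 and Slc40a1 are also genes of the absorptive cells of the small intestine, and markers of those cells were lower in both diet pools. Among the 9 enterocyte genes that passed, 8 were down in FeD and 8 in FeO, beside 2.12% and 4.33% of all probes tested. The median log2 ratio over the list's 11 probes was -1.61 in FeD and -1.82 in FeO. Their summed intensity was 2339 and 2443 in FeD against 11330 and 11530 in FeA, and 1984 and 2238 in FeO against 11550 and 11450 in FeA. Fabp2, a fatty acid carrier of enterocytes, was not well above background in FeD or in FeO and was so in FeA. In FeO the same held for Fabp1, Apoa1 and Cdh17. Such genes could pass the filter only through FeA, so the counts of genes down partly follow from the filter. The Cybrd1 ratio in FeO had opposite signs on the 2 arrays (0.43 and -0.21). The part of the enterocyte signal in the ratios of the 3 iron genes was not tested. Macrophages, which recycle iron, also carry Slc40a1. Of the 7 macrophage genes that passed, 2 were up in FeD (C1qa 0.61 and C1qb 0.60), beside 3.77% of all probes tested. In FeO 3 were up (C1qa 0.86, C1qb 0.48 and Cd163 0.95), beside 5.59%, and Marco was down (-0.93), beside 4.33%. The summed intensity of the macrophage list was 8664 and 8126 in FeD against 6658 and 5657 in FeA. On the FeO arrays it was 7917 and 9139 in FeO against 6458 and 6238 in FeA. Its part in the ratios of Slc40a1 and Ftl1 was not tested.

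The markers of the labelled tissue were present, and all acinar and islet genes had a probe well above background in every pool. In FeO 4 of 8 acinar and 4 of 8 islet genes were down and Gcg was up (median log2 ratio -0.44 and -0.77). The acinar genes Cpa1 and Prss1 had no ratio on array 2 and are not counted (array 1 -0.51 and 0.32). Of 5 adipocyte genes 3 were up in FeO (median 1.47). Of all probes tested in FeO, 5.59% were called up and 4.33% down. In FeD 2 of 10 acinar genes were up, and 3 of 8 islet genes and 1 of 5 adipocyte genes were down. Of all probes tested in FeD, 3.77% were called up and 2.12% down. None of the 6 duct genes was called in FeD and 2 were down in FeO.

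Aco1 encodes IRP1, which is a cytosolic aconitase when it carries an iron-sulphur cluster. Its probe, the only one of the 15 with 10 spots per array, read 9.36 to 9.46 in FeA, 9.40 and 9.47 in FeD and 9.57 and 9.74 in FeO. FeO was above all other values. The log2 ratio was -0.05 and 0.00 in FeD and 0.14 and 0.38 in FeO (mean 0.26, SD 0.17), which the value of array 1 kept from being called. Ireb2, read by a probe not well above background, had levels of 6.03 to 6.42 over all pools, so no ratio is reported for it.

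FeO was set against FeD through the shared FeA pool, by the difference of the ratios of arrays with the same dye orientation. Of the 12 probes that passed, 1 was called up (6.26% of 18331), that of Cybrd1, and 2 were called down (5.93%), those of Tfrc and Slc11a2. Tfrc differed by -0.83 and -1.09 (mean -0.96, SD 0.18, n = 2 array pairs), 1.94-fold lower in FeO than in FeD. Cybrd1 differed by 0.88 and 0.59 (mean 0.73, SD 0.21), 1.66-fold higher in FeO. The FeD pool passed background on 1 array only, and the mean ran from 0.59 to 1.68 over the alternatives, the highest with the scanner software's log ratio. The Cybrd1 call was lost when both pools had to be well above background.

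For Slc11a2 probe A_64_P102433 the difference was -0.38 and -0.39 (mean -0.38, SD 0.01), so the gap between its arrays cancelled when like dyes were compared. The other Slc11a2 probe, A_64_P102430, differed by 0.05 and 0.01 (mean 0.03) and was not called. The means of the 2 probes lay 0.41 apart, so the direction for Slc11a2 mRNA is uncertain here too. Aco1 differed by 0.18 and 0.38 and was not called. The median over the 12 probes that passed was -0.003, beside 0.00 over all probes tested, and over all 15 probes it was 0.03. With median centring 2 probes were called up, of Cybrd1 and Ftl1, and 1 down, of Tfrc. Limma was also run with the dye orientation as a replicate block, which takes out a gap shared by both comparisons. This block was chosen after seeing the data. The Benjamini-Hochberg adjusted p was then 1.37e-05 for Tfrc, 0.00027 for Cybrd1, 0.023 for Slc11a2 probe A_64_P102433 and 0.88 for Slc11a2 probe A_64_P102430. Without the block it was 0.215 for Tfrc, 0.988 for Cybrd1 and 0.9999 for each Slc11a2 probe. Such p-values rest on technical error between arrays of the same RNA pools and hold no variation among animals.

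**Figure D3:**
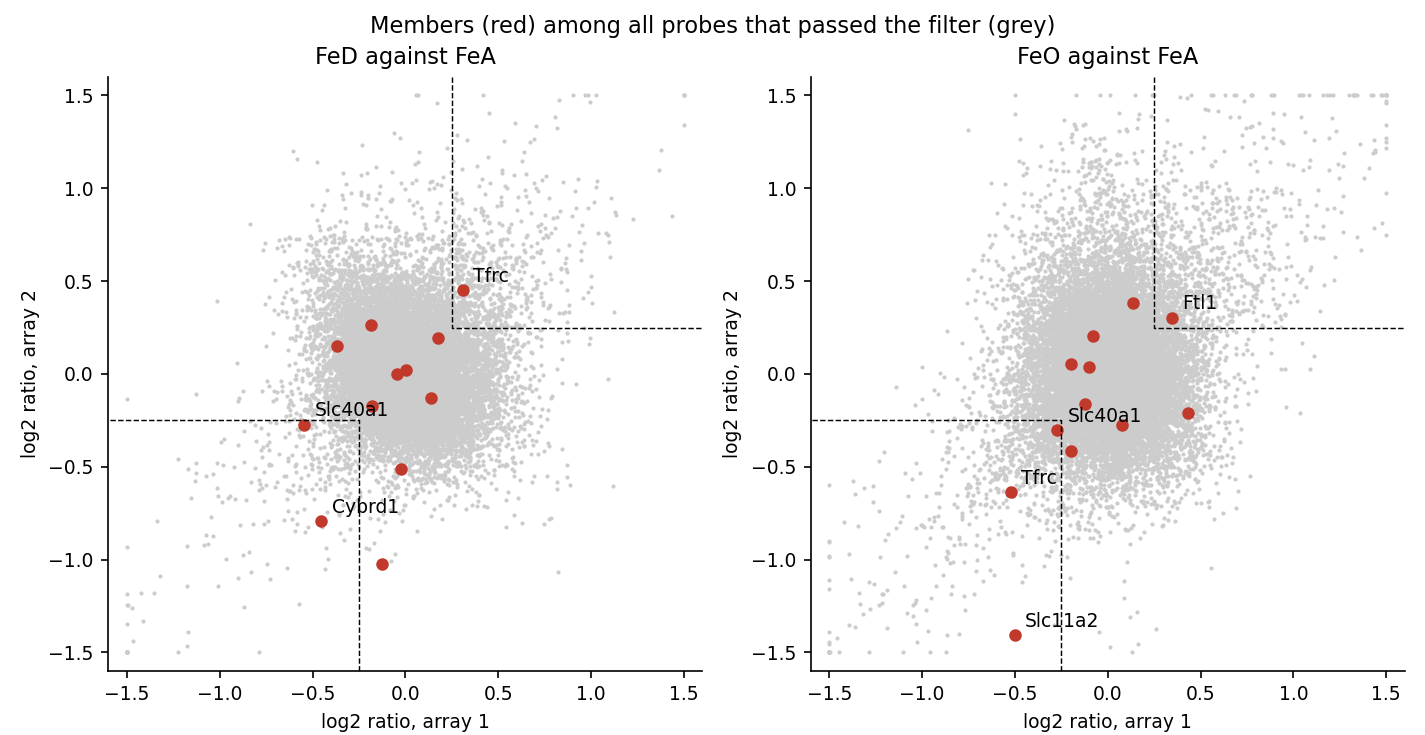
Log2 ratio on array 1 (horizontal) against array 2 (vertical) for every probe that passed in FeD against FeA (left) and FeO against FeA (right), with the 12 probes of the iron genes in red and values beyond 1.5 in size drawn at 1.5. Dashed corners enclose the probes called up or down. Most iron genes lie within the grey cloud, with Tfrc in the upper right corner in FeD (0.31, 0.45) and in the lower left corner in FeO (-0.52, -0.64).

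Among other genes of iron handling, most were not called. Of the 10 genes for uptake and reduction, 7 passed in each comparison. Of these, 1 was up in FeD (3.77% of all probes tested) and 3 were up in FeO (5.59%). None was down, beside 2.12% of all probes in FeD and 4.33% in FeO. Lcn2, a protein that binds bacterial iron carriers and rises in inflammation, had a mean log2 ratio of 0.66 in FeD (0.52 and 0.80) and 1.15 in FeO (0.78 and 1.51). Steap4, a metalloreductase of fat and inflamed tissue, was up in FeO by 1.06 (1.25 and 0.87) on probe A_64_P089555, whereas its probe A_64_P089561 had 0.13. Scara5, a ferritin receptor, was up in FeO by 0.41 on 1 of 2 probes. The second was not well above background in FeA on either array. In FeO against FeD, Tf (0.35), Lcn2 (0.48) and Steap4 (0.67) were up, beside 6.26% of all probes tested. The adipocyte markers, whose summed intensity was 36330 and 35620 in FeO against 11420 and 10400 in FeA, moved with Steap4, and their part was not tested.

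All 6 other mRNAs with an iron-responsive element passed, and 1 was up in FeD and 1 in FeO, beside 3.77% and 5.59% of all probes tested. Alas2, the first enzyme of haem synthesis in red cell precursors, was up in FeD by 1.24 (0.90 and 1.57), beside the erythroid Slc4a1 given above. In FeO it had 0.20 and 0.68 and was not called, and in FeO against FeD it was called down (-0.79). Hao1, a peroxisomal oxidase, was up in FeO by 0.54 (0.84 and 0.25) and in FeO against FeD by 0.35.

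None of the 5 storage and chaperone genes was called in FeD or FeO. Over all probes tested, 3.77% were up and 2.12% down in FeD, and 5.59% and 4.33% in FeO. Ftmt, mitochondrial ferritin, was called down in FeO against FeD (-0.33), as were 5.93% of all probes tested. Of the export and ferroxidase genes, 4 passed and none was called in FeD or FeO. They include Hamp (hepcidin, 0.22 in FeD and 0.06 in FeO) and Heph (hephaestin, -0.10 and 0.03). App, proposed to help iron export, was higher in FeO than in FeD by 0.38. The 5 genes that control the iron regulatory proteins, among them the iron sensor Fbxl5 (0.01 and 0.09), all passed and none was called in any comparison. The same held for the mitochondrial iron genes, of which 5 passed in FeD and 4 in FeO.

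**Figure D4:**
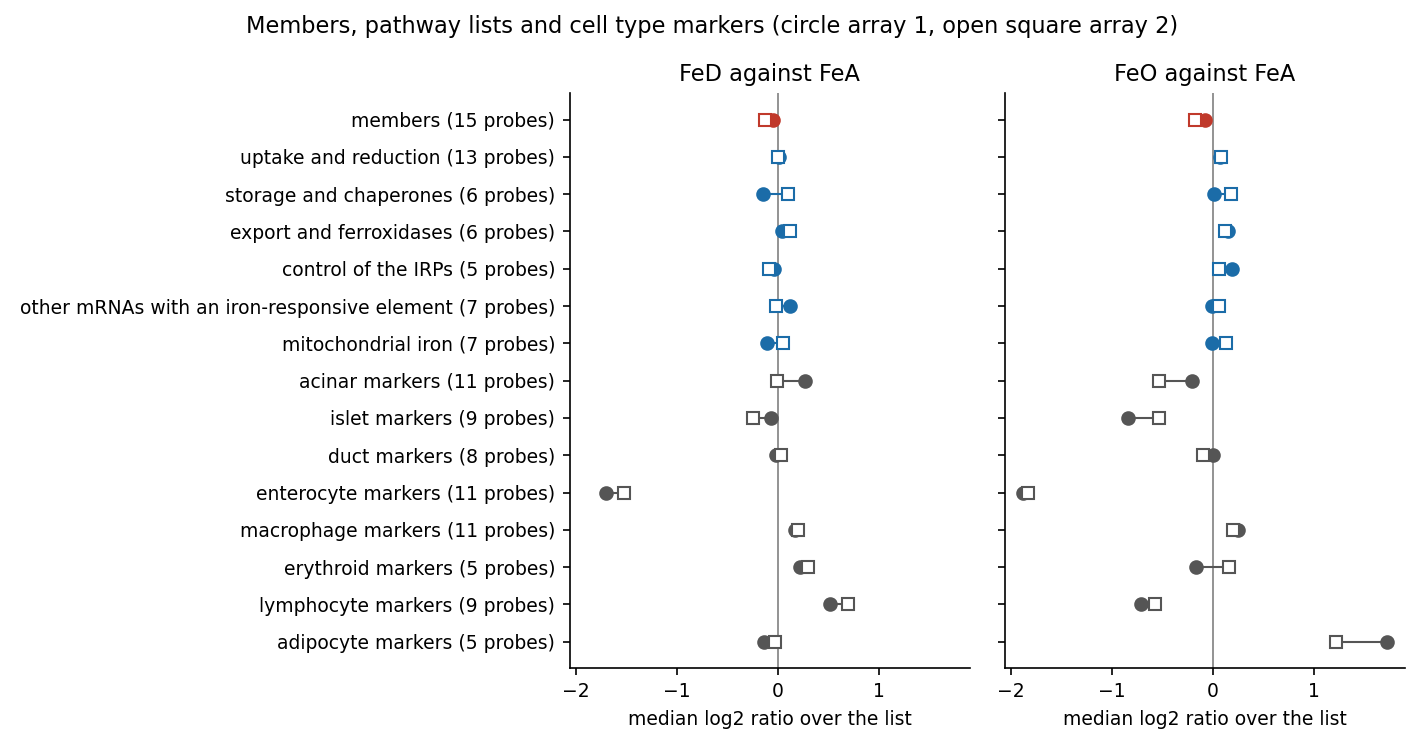
Median log2 ratio over each gene list, as FeD over FeA (left) and FeO over FeA (right), with array 1 as a filled circle and array 2 as an open square. The 15 probes of the iron genes are in red, other iron lists in blue and cell type markers in grey. The iron lists lie near 0 in both comparisons, whereas the enterocyte markers are low in both (-1.61 and -1.82 by the mean of both arrays), the lymphocyte markers are high in FeD and low in FeO (0.60 and -0.74) and the adipocyte markers are high in FeO (1.47).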

How the data were processed

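The authors deposited intensity values from Agilent Feature Extraction 10.1.1.1 on Rat GE 4x44K v3 arrays, all on 1 slide and in 1 scan per the file headers. The log10 values, as deposited, are ratios of Cy5 to Cy3 from the scanner software's processed signals. Symbols came from the deposited tables of the authors for 4945 probes, by accession for 18004 and from the array's own name for 7418. The fold changes and the p- and q-values in those tables were not used.

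In R 4.3.3 with limma 3.58.1, median spot signals were used, as mean signals were not in the files. Local background was handled by normexp (offset 50), and ratios were loess normalised within each array, with control spots and the 722 to 938 outlier spots per array at weight 0. Spots of 1 probe were averaged and ratios turned for the dye. Levels are log2 intensities after loess and Aquantile. A probe was well above background when over 50% of its spots were. Per pool and array, 55.1% to 65.6% of probes were, and the number of arrays limits precision. All 10 genes were named with every probe, and other iron genes where called. Members, lists and criteria were chosen with earlier results of these data known. Alternatives were 3 other signals or backgrounds, median centring, outlier spots kept, other filters, size criteria, tests and each array left out. The steps were tested on simulated data. Figures were drawn with matplotlib 3.10.9 in Python 3.11.15. Quantitative PCR and protein measurements were not analysed here.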

Additional observations from a re-analysis of the deposited data

How the results depend on the processing

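Of 315 single-probe values under the alternatives, 268 moved by less than the spread between the arrays and 47 by more, and no called ratio changed sign. The 268 include all values with 1 array left out. With 2 arrays such a value always moves by less than that spread and cannot reverse a called ratio, so it carries no information on robustness. In FeD against FeA 3 member probes were called, beside 1 at a mean log2 ratio of at least 0.6, 0 at 1 and 0 at 2, the size criterion of the methods. The methods' t-test gave 1 unadjusted and 0 after Benjamini-Hochberg adjustment (1091 and 1 of all probes), and adjusted limma 0 (1067 probes unadjusted and 103 adjusted). In FeO against FeA 4 were called, beside 0 with median centring, 1 at 0.6, 0 at 1 and 0 at 2. The methods' t-test gave 2 unadjusted and 0 adjusted (1459 and 0 of all probes), and adjusted limma 0 (1613 and 153 probes). In FeO against FeD 3 were called, beside 0 at 1, 0 at 2 and 0 by adjusted limma (872 and 10 probes).

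With the dye orientation as a replicate block, limma called 3 members and 2019 probes. No paired analysis was possible because each array already pairs both pools in the direct comparisons. No background subtraction lost the FeO call of Slc40a1, and requiring both pools well above background lost Cybrd1 in FeD and in FeO against FeD. The median over the members moved from -0.05 to -0.12 with an offset of 0 and to -0.14 with the scanner software's log ratio in FeD, and from 0.03 to 0.15 with median centring in FeO against FeD. With 1 array left out, called members ranged from 4 to 6 in FeD, 5 to 7 in FeO and 5 to 6 in FeO against FeD, and medians from -0.13 to -0.046, -0.17 to -0.080 and 0.0088 to 0.096. With 1 pool per diet, differences among rats were out of reach. The causes were not tested.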
